A study of Mus musculus with 5 samples.

Results

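The genes of the cytosolic ribosomal proteins were compared between sorted leukaemia cells and sorted normal myeloid cells of the mouse. They were chosen by symbol alone: every row named Rpl or Rps with a number, allowing the usual suffixes, together with Rplp0, Rplp1, Rplp2 and Rpsa. The rule found 84 genes among the 34240 features of the deposited table, 52 of the large (60S) and 32 of the small (40S) subunit. The AML group held 2 libraries of cells sorted for Mac, Gr1 and B220 from bone marrow and spleen of BALB/c mice with an acute myeloid leukaemia (AML) driven by CNTRL-FGFR1, a fusion that joins the kinase FGFR1 to the centrosome protein centriolin. The normal group held 3 libraries of Gr1+Mac1+ myeloid cells sorted from bone marrow of BALB/c mice. Both groups were aged 10-12 months. The tissue and the B220 gate differ between the groups in the same way as the disease, so these cannot be told apart. Separate animals are not named for the libraries, so p-values cover only the spread among these samples, and that spread may be technical.

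Each ribosome carries one copy of nearly every ribosomal protein, and the proteins of the small subunit read the mRNA while those of the large subunit surround the site of peptide bond formation and the tunnel through which the new chain leaves. Ribosomal protein mRNAs are among the most abundant of a growing cell. They start with a C followed by a run of pyrimidines, the 5' terminal oligopyrimidine (TOP) tract, through which the kinase mTOR and the RNA-binding protein LARP1 control their translation. In bone marrow, loss of 1 gene copy of several members causes Diamond-Blackfan anaemia, and loss of RPS14 contributes to the anaemia of the human 5q- syndrome.

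The starts of 10 genes are shown because TOP tracts lie there, and because these genes had the 5 highest and the 5 lowest log2 fold changes of the family. Each sequence runs from 25 bases before to 20 bases from the RefSeq start, in the build GRCm38.p6, 5' to 3' on the gene's strand. Capitals mark the longest unbroken run of C and T in that stretch. The 5 genes with the highest fold changes began as follows.
Rps12 (chr10:23787190-23787234, minus strand): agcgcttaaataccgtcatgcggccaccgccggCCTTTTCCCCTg
Rps18 (chr17:33955646-33955690, minus strand): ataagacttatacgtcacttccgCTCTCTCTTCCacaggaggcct
Rpl27 (chr11:101442220-101442264, plus strand): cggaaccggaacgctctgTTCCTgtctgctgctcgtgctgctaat
Rpl36a (chrX:134585629-134585673, plus strand): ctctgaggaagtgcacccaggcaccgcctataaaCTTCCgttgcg
Rpl37 (chr15:5116588-5116632, plus strand): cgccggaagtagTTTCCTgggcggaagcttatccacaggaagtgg
The 5 genes with the lowest fold changes began as follows.
Rpl26 (chr11:68901541-68901585, plus strand): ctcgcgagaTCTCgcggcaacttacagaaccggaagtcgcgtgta
Rpl7l1 (chr17:46782637-46782681, minus strand): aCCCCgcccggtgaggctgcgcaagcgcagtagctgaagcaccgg
Rps9 (chr7:3704016-3704060, plus strand): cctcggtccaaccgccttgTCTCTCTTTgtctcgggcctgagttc
Rps13 (chr7:116334171-116334215, minus strand): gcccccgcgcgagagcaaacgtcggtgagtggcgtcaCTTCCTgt
Rpl3l (chr17:24727801-24727845, plus strand): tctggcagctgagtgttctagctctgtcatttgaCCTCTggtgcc
The run was 11 bases long in Rps12 and Rps18, and 9 in Rps9, one of the genes with the lowest fold changes. The runs of the other 7 sequences were 4 to 6 bases long. RefSeq start sequences were matched by symbol for 63 of the 84 genes, and 29 of the 63 (46.0%) held a run of at least 8 pyrimidines in this stretch, against 17.1% of the 7241 tested genes with a start sequence and 17.9% of all 27025 promoters in the RefSeq table. Among members, the run was present in 25 of the 51 that were higher in AML cells and in 3 of the 10 tested members that were not called. An annotated start can lie some bases from the one used in these cells, so a missing run says only that these letters are not in this stretch. The letters CCGGAAG, the core bound by ETS factors, were found on either strand within the 300-base promoter of 38.1% of the members, 20.2% of tested genes and 9.12% of all promoters. AAGATGGC, the core of the YY1 motif, was found in 7.94% of the members, 5.26% of tested genes and 2.88% of all promoters.

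Ribosomal protein mRNAs took up a larger share of the AML libraries than of the normal libraries. The deposited values are read here as RPKM (read density over the exons, corrected for library size). The 84 genes summed to 19443 and 22374 RPKM in AML libraries 1 and 2, against 5446, 7256 and 8323 RPKM in normal libraries 1 to 3. This was 3.71% and 3.50% of the RPKM total in the AML libraries and 1.15%, 1.37% and 1.35% in the normal libraries, so the groups lay far apart. A share of the total does not show how much mRNA a cell held, and in sorted bulk samples a change in the mix of cells and a change of RNA per cell cannot be told apart. S100a8 and S100a9, the calprotectin genes of neutrophils, alone took 20.8% and 30.1% of the RPKM total in the AML libraries and 28.1%, 32.8% and 37.0% in the normal libraries. Without them, the ribosomal protein share was 4.69% and 5.01% in the AML libraries and 1.61%, 2.04% and 2.14% in the normal libraries. Weighting by annotated exon length brings RPKM near to a share of reads, and it covered 83 members, without Rpl41, which had no annotated length. The weighted share was 2.56% and 3.05% in the AML libraries and 0.773%, 1.01% and 1.15% in the normal libraries.

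Most single genes rose with the sum. Of the 84 genes, 82 passed the filter of at least 1 RPKM in at least 2 libraries, and 71 of these 82 (86.6%) were higher in AML cells at an adjusted p under 0.05 (limma on log2(RPKM + 1), Benjamini-Hochberg over 10166 genes). Over all tested genes, 19.3% were higher and 11.8% lower, and no ribosomal protein gene was called lower. Rpl21, Rpl29 and Rpl3l passed the filter only through the AML libraries, since fewer than 2 normal libraries reached 1 RPKM. Entry of this kind leans towards higher AML values. Rpl21 and Rpl29 were called and Rpl3l was not, and without these genes 69 of 79 tested members were higher. Both AML libraries lay above all 3 normal libraries for 76 of the 82 genes (92.7%), against 34.8% of all tested genes, and both lay below all 3 for none of them, against 22.1%. All 82 log2 fold changes were above 0, against 55.9% over all tested genes. The median log2 fold change of the 82 genes was 1.59, beside 0.12 for all tested genes, and the middle 50% of the members lay between 1.21 and 1.87. The fold changes were also closer together than those of genes at large, with an SD of 0.57 over the members and 1.02 over all tested genes. As ratios of mean RPKM, 17 members were over 4-fold higher, 53 between 2- and 4-fold, and 12 under 2-fold, among them Rpl26 with a ratio of 0.379. A mean of at least 100 RPKM was reached by 60 members in AML cells and 23 in normal cells.

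The calls of single genes depended on which libraries were used. Without normal library 1, 2 or 3 the number of members called higher was 60, 48 and 77, of 82, beside 11.4%, 9.61% and 27.3% of all tested genes. Without AML library 1 it was 38 of 81, or 46.9%, beside 7.08% of all tested genes. Without AML library 2 it was 14 of 81, or 17.3%, beside 3.33% of all tested genes, while the median log2 fold change was still 1.40. The 12 genes called in every one of these 5 fits were Rpl6, Rpl8, Rpl9, Rpl10a, Rpl12, Rpl21, Rpl32, Rpl36, Rpl37, Rps12, Rps15 and Rps26. Of these 12 genes, Rpl21 had passed the filter only through the AML libraries, so its calls carry less weight. A fit with 1 AML library takes the spread of that library from the normal libraries.

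**Figure D1:**
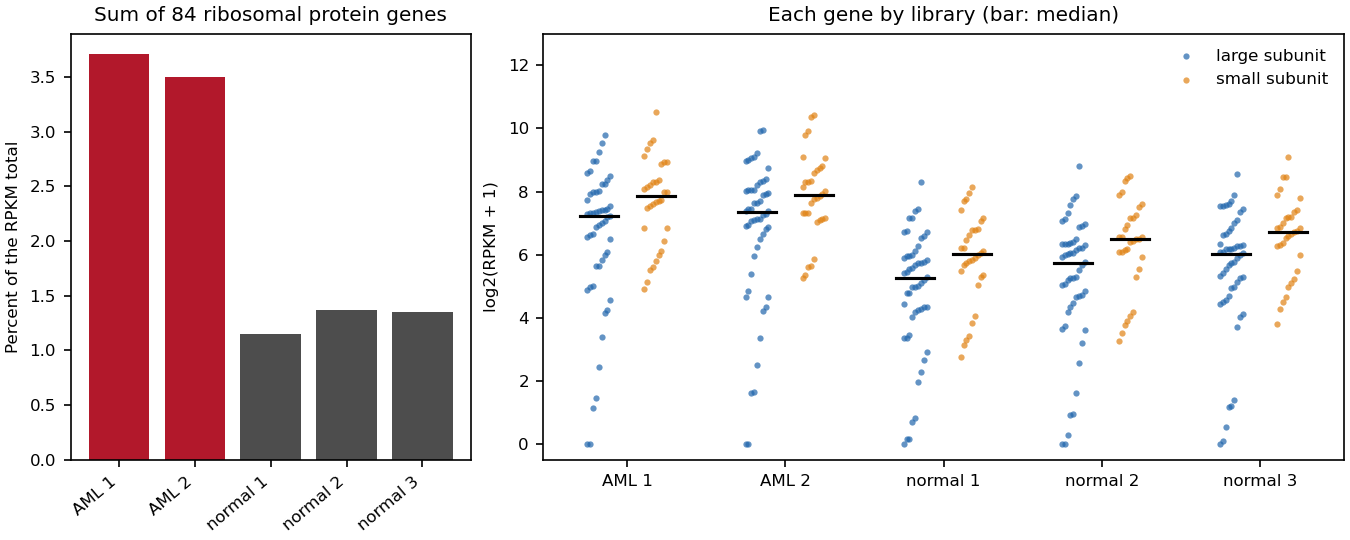
Share of the RPKM total held by the 84 ribosomal protein genes (left, bars, percent) and log2(RPKM + 1) of each gene by subunit (right, points, with a black bar at the median) in the 2 AML and 3 normal libraries. The AML shares are 3.71% and 3.50% and the normal shares 1.15% to 1.37%, and the medians of both subunits stand higher in each AML library than in any normal library.

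Genes of both subunits were higher in AML cells. Of the large subunit genes, 43 of 50 tested were higher in AML cells (86.0%), with a median log2 fold change of 1.60. Of the small subunit genes, 28 of 32 were higher (87.5%), with a median of 1.44, a gap between the medians that is small beside the SD of 0.57 over the members. The median large subunit gene stood at 147 and 161 RPKM in AML libraries and 37.2, 51.9 and 64.1 RPKM in normal libraries. The median small subunit gene stood at 232 and 235 RPKM in AML libraries and 64.4, 89.2 and 104 RPKM in normal libraries, above the large subunit median in every library. The summed RPKM of the large subunit divided by that of the small subunit was 0.988 and 1.01 in AML libraries and 0.983, 0.964 and 0.969 in normal libraries. The 2 subunits thus held nearly equal sums in all 5 libraries, with both AML ratios slightly above the 3 normal ratios.

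Among large subunit genes the rises spanned log2 fold changes of 0.83 to 2.41. The 9 genes at 2 or more were Rpl27, Rpl36a, Rpl37, Rpl8, Rpl36, Rpl13, Rpl14, Rpl12 and Rpl23a, at 2.04 to 2.41. The 19 genes from 1.5 to under 2, at 1.55 to 1.99, were Rpl30, Rpl21, Rplp1, Rpl13a, Rpl9, Rpl37a, Rpl28, Rpl17, Rpl39, Rpl6, Rpl5, Rpl35, Rpl22, Rplp2, Rpl32, Rpl27a, Rpl23, Rpl38 and Rpl10a. The 15 genes under 1.5, at 0.83 to 1.46, included Rplp0, Rpl41, Rpl24, Rpl4, Rpl15, Rpl3, Rpl11, Rpl34, Rpl36al, Rpl18, Rpl7a, Rpl29, Rpl19 and Rpl7. Adjusted p over the 71 called members ran from 0.00199 to 0.0498, and the highest belonged to Rpl7.

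The large subunit genes with the highest levels were Rpl4 and Rpl8. Rpl4, whose protein lines the peptide tunnel, stood at 892 and 977 RPKM in AML libraries and 317, 448 and 377 RPKM in normal libraries. Rpl8, whose protein lies at the peptidyl transferase centre, stood at 743 and 984 RPKM in AML libraries and 141, 160 and 235 RPKM in normal libraries. The groups did not overlap for either gene, and the log2 fold change was 1.31 for Rpl4 (SE 0.27, limma, Benjamini-Hochberg adjusted p = 0.0126) and 2.29 for Rpl8 (SE 0.31, adjusted p = 0.00296). The Rpl4 call was lost without AML library 1 (adjusted p = 0.061) or AML library 2 (0.0905). Rpl27 (chr11:101303612-101306843, plus strand, mm9) had the highest log2 fold change of the large subunit, at 49.3 and 116 RPKM in AML libraries and 9.37, 11.3 and 22.5 RPKM in normal libraries. AML library 2 was the higher of the AML libraries, and both lay above every normal library (log2 fold change 2.41, SE 0.47, adjusted p = 0.0105; 0.0921 without AML library 2). Rpl37, at 158 and 262 RPKM in AML libraries and 30.9, 38.4 and 52.1 RPKM in normal libraries, was likewise separated (log2 fold change 2.33, SE 0.33, adjusted p = 0.00349).

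The 3 genes of the P-stalk, the flexible arm that recruits elongation factors, all rose. Rplp0, the base of the stalk, stood at 357 and 242 RPKM in AML libraries and 106, 116 and 98.1 RPKM in normal libraries. Rplp1 stood at 504 and 550 RPKM in AML libraries and 105, 134 and 195 RPKM in normal libraries, and Rplp2 at 330 and 510 RPKM in AML libraries and 104, 119 and 188 RPKM in normal libraries. No AML library overlapped a normal library for any of the 3 genes. Log2 fold changes were 1.46 for Rplp0, 1.90 for Rplp1 and 1.62 for Rplp2 (limma, Benjamini-Hochberg adjusted p = 0.00804, 0.00602 and 0.0146). The call of Rplp0 was lost when AML library 1 was left out (adjusted p = 0.058) and that of Rplp1 without AML library 2 (0.0628). The call of Rplp2 was lost without normal library 2 (0.064) or AML library 2 (0.12).

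Rpl5 and Rpl11, whose proteins join the 5S rRNA and can bind the p53 inhibitor MDM2, both rose, at very different levels. Rpl11 stood at 162 and 157 RPKM in AML libraries and 51.9, 73.1 and 72.7 RPKM in normal libraries. Rpl5 stood at 17.0 and 4.66 RPKM in AML libraries and 2.9, 2.07 and 1.31 RPKM in normal libraries. The AML libraries agreed closely for Rpl11, while the Rpl5 value of AML library 1 stood well above that of AML library 2; neither gene's groups overlapped. Log2 fold changes were 1.28 for Rpl11 (SE 0.26) and 1.74 for Rpl5 (SE 0.49), with adjusted p of 0.011 and 0.0362 (limma, Benjamini-Hochberg). The Rpl11 call did not hold without AML library 1 (adjusted p = 0.0673) or AML library 2 (0.08), and the Rpl5 call without normal library 2 (0.0901) or AML library 1 (0.138).

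Around the exit of the peptide tunnel, 5 of 7 genes rose (71.4%), with a median log2 fold change of 1.72 over the 7. The share was 86.6% over the whole family and 19.3% over all tested genes. The 5 were Rpl17, Rpl19, Rpl23a, Rpl35 and Rpl39, and Rpl26 and Rpl31 did not pass the test. All 5 calls were lost without AML library 2 (adjusted p = 0.0708 to 0.0963), that of Rpl23a also without AML library 1 (0.0695), and that of Rpl19 without any one library other than normal library 3 (0.0575 to 0.0958). Rpl31 stood at 30.9 and 40.8 RPKM in AML libraries and 18.5, 21.4 and 25.1 RPKM in normal libraries, without overlap (log2 fold change 0.70, SE 0.25, limma, Benjamini-Hochberg adjusted p = 0.0715). Of the large subunit genes that were not called, Rpl10, whose protein is among the last to join the subunit, had a log2 fold change of 0.93 (SE 0.36, adjusted p = 0.0905) and Rpl35a 1.04 (SE 0.35, adjusted p = 0.0639). Without normal library 3 the calls were made for Rpl31 (0.0285), Rpl10 (0.00451) and Rpl35a (0.00664).

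Among small subunit genes, 5 had a log2 fold change of 2 or more and 10 one from 1.5 to under 2, with the other 13 called genes under 1.5. The 5 genes at 2 or more, at 2.14 to 3.38, were Rps12, Rps18, Rps19, Rps15 and Rps2. The 10 genes of the middle band, at 1.59 to 2.00 after rounding, included Rps26, Rps28, Rps20, Rps21, Rps24, Rps14, Rps15a and Rpsa. The 13 genes under 1.5 included Rps16, Rps27l, Rps25, Rps23, Rps7, Rps6, Rps27, Rps10, Rps3a, Rps3 and Rps27a, at 1.07 (Rps27a) to 1.40 (Rps16). The head of the small subunit is the domain that holds the mRNA against the tRNAs. There 13 of 14 genes rose (92.9%), with a median log2 fold change of 1.55. Outside the head 15 of 18 rose (83.3%), with a median of 1.34. Both shares were near the 86.6% of the whole family, against 19.3% of all tested genes.

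Rps15 and Rps24 had the highest mean levels of the family. Rps15, a protein of the head near the decoding site, stood at 1453 and 1364 RPKM in AML libraries and 248, 321 and 353 RPKM in normal libraries. The groups were widely separated, and the log2 fold change was 2.21 (SE 0.27, limma, Benjamini-Hochberg adjusted p = 0.00199). Rps24 stood at 801 and 1325 RPKM in AML libraries and 219, 361 and 355 RPKM in normal libraries, and Rps26, at the mRNA exit, at 736 and 976 RPKM in AML libraries and 171, 238 and 234 RPKM in normal libraries. Neither gene's groups overlapped (log2 fold change 1.76 for Rps24, adjusted p = 0.0121; 2.00 for Rps26, adjusted p = 0.00345). The Rps24 call was lost without AML library 2 (adjusted p = 0.101).

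Rpsa, Rps6, Rps14 and Rps19 are the small subunit genes best known for roles beyond the ribosome or in blood disease, and all 4 rose. Rpsa, also described as a laminin receptor, stood at 314 and 240 RPKM in AML libraries and 68.9, 93.8 and 114 RPKM in normal libraries. Rps6, the substrate of the S6 kinases downstream of mTOR, stood at 203 and 200 RPKM in AML libraries and 66.1, 85.9 and 90.6 RPKM in normal libraries. The 2 AML values of Rps6 were nearly the same, and no group overlapped for Rps6 or Rpsa. Rps14 stood at 311 and 428 RPKM in AML libraries and 87.1, 112 and 161 RPKM in normal libraries. Rps19, the gene most often mutated in Diamond-Blackfan anaemia, stood at 67.9 and 141 RPKM in AML libraries and 13.4, 17.3 and 30.3 RPKM in normal libraries. AML library 2 was the higher of the AML libraries for Rps14 and Rps19, and both AML values again lay above every normal value. Log2 fold changes were 1.59 for Rpsa, 1.32 for Rps6, 1.64 for Rps14 and 2.29 for Rps19 (limma, Benjamini-Hochberg adjusted p = 0.00895, 0.00895, 0.0114 and 0.00939). Without AML library 2 the adjusted p rose to 0.0548 for Rpsa, 0.0714 for Rps6, 0.101 for Rps14 and 0.0863 for Rps19. Calls were also lost without AML library 1 for Rpsa (0.0669) and Rps6 (0.0578), and without normal library 2 for Rps14 (0.0518).

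Of 20 genes mutated in Diamond-Blackfan anaemia, 16 rose (80%), with a median log2 fold change of 1.47 beside 1.59 for the whole family. That share was near the 86.6% of the whole family, against 19.3% of all tested genes. The 4 that were not called were Rpl26, Rpl31, Rpl35a and Rps29.

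**Figure D2:**
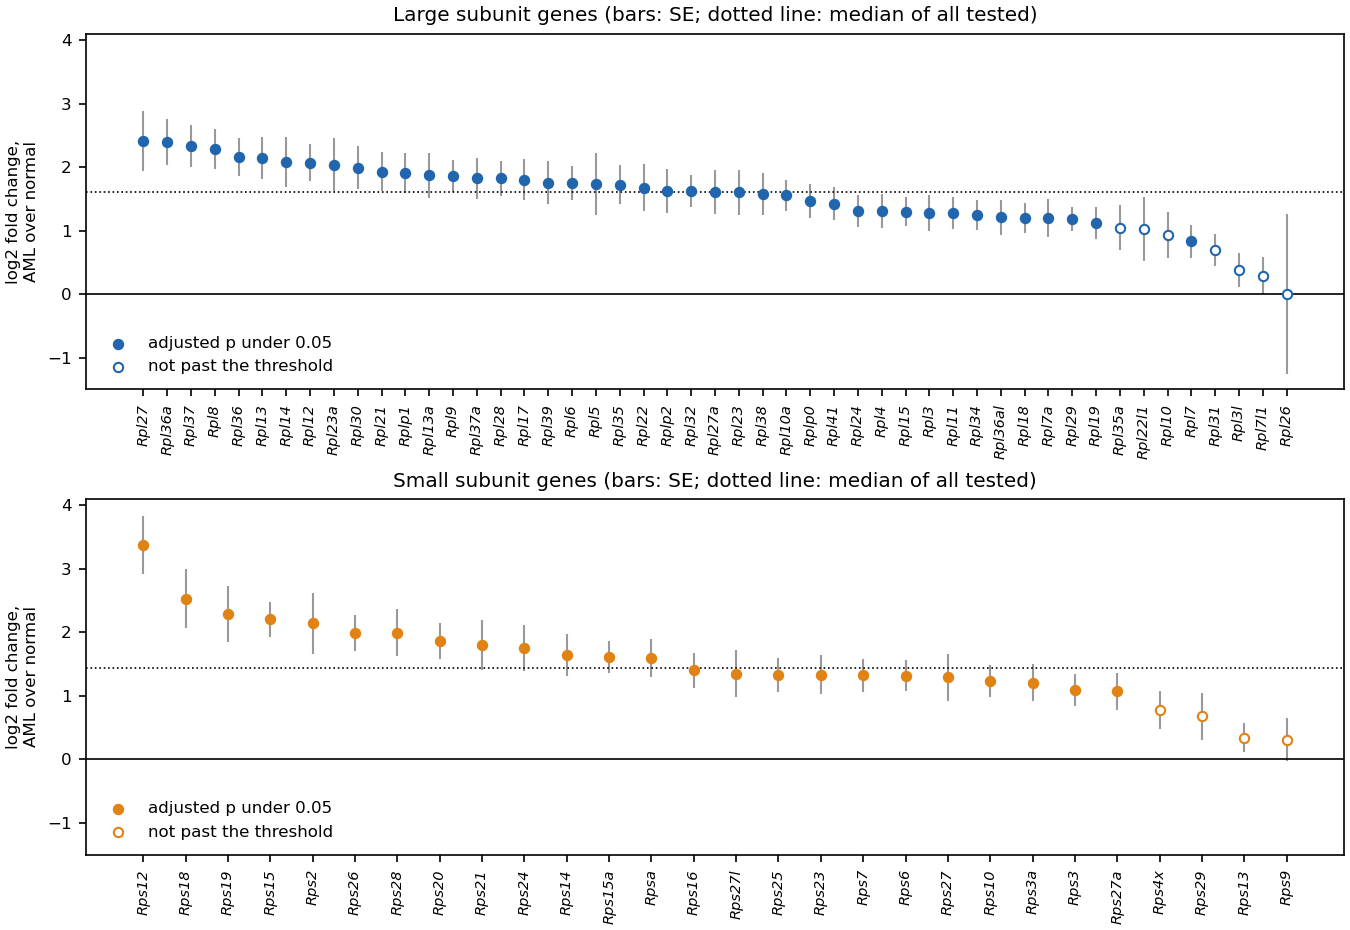
Log2 fold change of the tested ribosomal protein genes reported by name, AML over normal, on the log2(RPKM + 1) scale, with bars of 1 SE, for large (top) and small (bottom) subunit genes. Filled points passed the threshold, open points did not, and the dotted lines mark the medians of 1.60 and 1.44 over all tested genes of a subunit, with Rps12 at 3.38 the highest and Rpl26 at 0.01 the lowest.

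Rps12 stood apart at the upper end. Rps12 (chr10:23504990-23507015, minus strand, mm9), a small subunit protein known in the fly for its part in cell competition, stood at 646 and 880 RPKM in AML libraries and 38.2, 90.1 and 106 RPKM in normal libraries. The lowest AML value was several times the highest normal value. The mean was 763 ± 165 RPKM in AML cells (SD, n = 2) and 77.9 ± 35.3 RPKM in normal cells (SD, n = 3), a 9.79-fold difference. The log2 fold change of 3.38 (SE 0.45, limma, Benjamini-Hochberg adjusted p = 0.00278) remained past the threshold without any one library. Rps12 supplied 3.32% and 3.93% of the ribosomal protein sum in AML libraries and 0.701%, 1.24% and 1.27% in normal libraries. All 50-base windows of its coding sequence had an exact copy elsewhere in the genome, at 23 loci, so its reads can be shared with those loci. Rps18 (chr17:34088944-34092946, minus strand), a protein of the small subunit head, came next, at 61.9 and 136 RPKM in AML libraries and 9.85, 14.0 and 24.5 RPKM in normal libraries. AML library 2 was more than 2 times AML library 1 for Rps18, and neither AML library overlapped the normal group (log2 fold change 2.53, SE 0.46, adjusted p = 0.00823; 0.0787 without AML library 2).

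At the lower end, 11 of the 82 tested genes were not called, with log2 fold changes between 0.01 and 1.04. Rps9 (chr7:3655595-3658503, plus strand), a protein at the mRNA entry channel, stood at 488 and 445 RPKM in AML libraries and 281, 347 and 544 RPKM in normal libraries. Both AML values lay between those of normal libraries 2 and 3 (log2 fold change 0.31, SE 0.34, limma, Benjamini-Hochberg adjusted p = 0.502). Its share of the ribosomal protein sum was 2.51% and 1.99% in AML libraries and 5.16%, 4.78% and 6.53% in normal libraries, lower in both AML libraries than in any normal library. Rps13 (chr7:123475021-123477704, minus strand) stood at 54.6 and 48.8 RPKM in AML libraries and 39.6, 46.0 and 36.9 RPKM in normal libraries, without overlap and close together (log2 fold change 0.34, SE 0.23, adjusted p = 0.289). Rps4x, the X-linked copy of the RPS4 gene, had a log2 fold change of 0.78 (SE 0.30, adjusted p = 0.0887). Rps29, a zinc-binding protein of the head, stood at 28.9 and 37.6 RPKM in AML libraries and 15.8, 15.5 and 33.5 RPKM in normal libraries. Normal library 3 lay between the AML libraries for Rps29 (log2 fold change 0.68, SE 0.37, adjusted p = 0.202), and without it the adjusted p was 0.00942.

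Rpl26 was set by 1 library. Rpl26 (chr11:68715085-68720491, plus strand), whose protein sits at the tunnel exit and is known to bind the p53 mRNA, stood at 9.5 and 19.4 RPKM in AML libraries and 3.9, 4.9 and 105.7 RPKM in normal libraries. Normal libraries 1 and 2 lay below both AML libraries and normal library 3 far above them. The log2 fold change was 0.01 (SE 1.26, limma, Benjamini-Hochberg adjusted p = 0.997). Without normal library 3 it was 1.44 (adjusted p = 0.00903), and against normal library 3 alone it was -2.87, a value with no replicate on the normal side. Rpl26 was also the only member deposited with 1 decimal, while 82 members had 2 decimals.

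**Figure D3:**
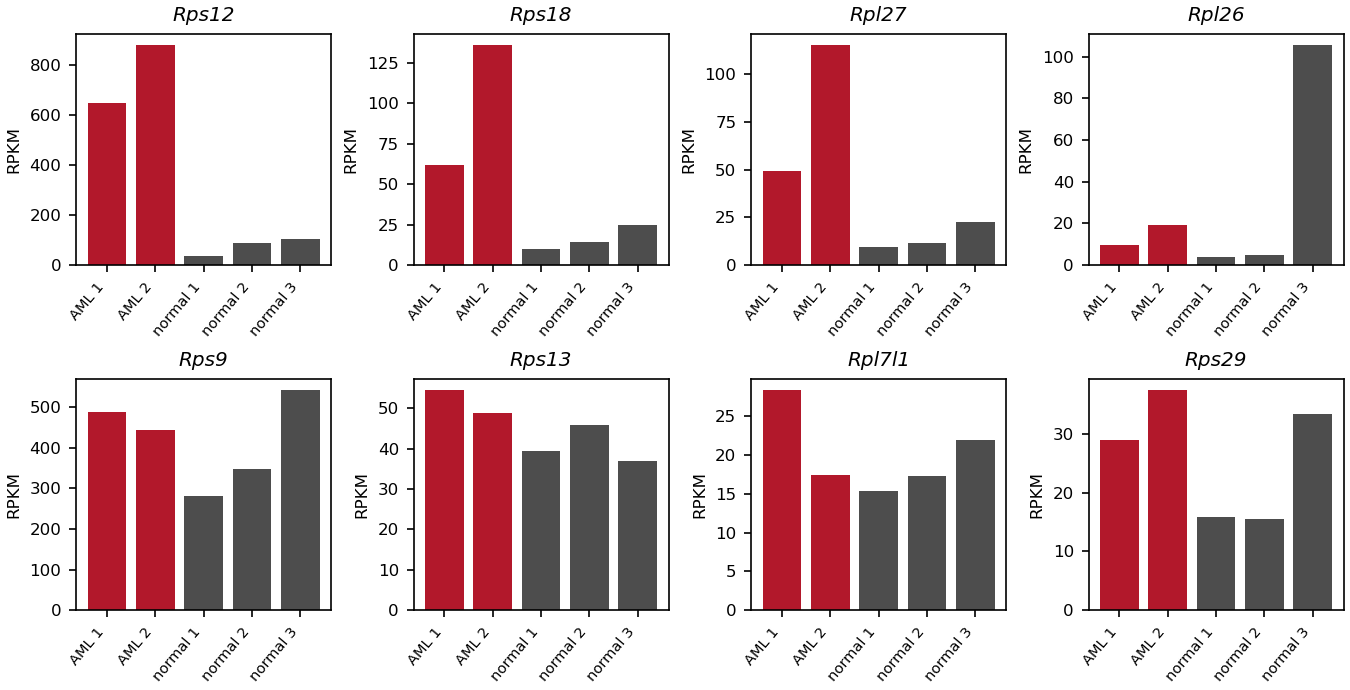
RPKM (bars, linear scale from 0, a scale of its own for each gene) in the 2 AML and 3 normal libraries of 8 ribosomal protein genes whose fold changes lay at the ends of the family, picked after their values were seen. Rps12, Rps18 and Rpl27 are separated between the groups, Rps9, Rpl7l1 and Rps29 overlap, and Rpl26 has a single high value in normal library 3.

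Paralogues are second gene copies that encode variants of the same protein. Of 7 pairs compared, 6 had a lower mean log2 ratio of paralogue to partner in AML cells (1 RPKM added to both) and 1, Rps27l to Rps27, did not, and in 2 of the 6 the paralogue was at or near 0 throughout. The exact permutation test took 2 times the smaller one-sided p as its two-sided p, which for 2 against 3 libraries cannot fall below 0.2, so none of the pairs could pass a threshold of 0.05. The 6 pairs reached that smallest p of 0.2 (exact, 0.233 adjusted over 7 pairs), and Rps27l to Rps27 had p = 0.4. For Rpl22l1 to Rpl22 the groups were apart only with the added 1 RPKM, since the plain percentages overlap.

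The Rpl36al and Rpl36a pair differed most plainly in RPKM. Rpl36a stood at 127 and 174 RPKM in AML libraries and 17.3, 31.8 and 37.4 RPKM in normal libraries, and Rpl36al at 67.0 and 89.7 RPKM in AML libraries and 26.6, 32.3 and 41.8 RPKM in normal libraries. Rpl36al was therefore 52.9% and 51.6% of Rpl36a in AML libraries and 154%, 101% and 112% in normal libraries. The larger of the pair was Rpl36a in AML cells and Rpl36al in normal cells, with a difference of -1.19 in the log2 ratio. Both genes rose, with log2 fold changes of 2.39 for Rpl36a (SE 0.37) and 1.21 for Rpl36al (SE 0.28; limma, Benjamini-Hochberg adjusted p = 0.00449 and 0.0188). The Rpl36a call did not hold without AML library 2 (adjusted p = 0.0589), and the Rpl36al call was lost without any one library other than normal library 3 (0.0566 to 0.147). Windows of both coding sequences had exact copies elsewhere (100% for Rpl36a, 81.6% for Rpl36al), so reads of this pair may be split between loci.

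Rpl22l1, which in the mouse can replace and oppose Rpl22, stood at 17.97 and 24.1 RPKM in AML libraries and 5.29, 8.17 and 20.4 RPKM in normal libraries. Rpl22 stood at 62.0 and 121 RPKM in AML libraries and 19.4, 27.8 and 34.3 RPKM in normal libraries. Rpl22l1 was 29.0% and 19.97% of Rpl22 in AML libraries and 27.3%, 29.4% and 59.7% in normal libraries, so these percentages overlap and normal library 3 stands above the rest. Rpl22 was higher in AML cells (log2 fold change 1.67, SE 0.37, limma, Benjamini-Hochberg adjusted p = 0.0158), a call lost without normal library 2 (0.0516) or AML library 2 (0.121). Rpl22l1 had a log2 fold change of 1.02 (SE 0.50, adjusted p = 0.159), which became 1.52 (adjusted p = 0.00324) without normal library 3.

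Rps27l, a p53 target in human cells, kept nearly the same ratio to Rps27 in all 5 libraries. It was 44.0% and 45.7% of Rps27 in AML libraries and 44.1%, 41.3% and 42.6% in normal libraries. The difference of log2 ratios was 0.06, with SDs of 0.04 in AML (n = 2) and 0.05 in normal libraries (n = 3; exact permutation p = 0.4). Both rose, Rps27l with a log2 fold change of 1.35 and Rps27 with 1.29 (limma, Benjamini-Hochberg adjusted p = 0.0325 and 0.0389). Either call was lost without any one library other than normal library 3, with adjusted p of 0.058 to 0.223 for Rps27l and 0.0688 to 0.247 for Rps27.

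Rpl7l1, a nucleolar relative of Rpl7, stood at 28.4 and 17.4 RPKM in AML libraries and 15.4, 17.3 and 21.9 RPKM in normal libraries. Its groups overlap (log2 fold change 0.29, SE 0.29, limma, Benjamini-Hochberg adjusted p = 0.465). Rpl7l1 was 7.01% and 5.44% of Rpl7 in AML libraries and 8.85%, 7.53% and 10.7% in normal libraries. Rpl7 itself stood at 406 and 319 RPKM in AML libraries and 174, 230 and 205 RPKM in normal libraries (log2 fold change 0.83, adjusted p = 0.0498, lost without any one library other than normal library 3, 0.118 to 0.201). Rpl3l, the form of Rpl3 made in striated muscle, was near the filter at 1.21 and 2.13 RPKM in AML libraries and 0.62, 0.95 and 1.62 RPKM in normal libraries. Rpl3 stood at 56.4 and 61.5 RPKM in AML libraries and 17.9, 24.2 and 30.6 RPKM in normal libraries (log2 fold change 1.28, adjusted p = 0.0151; 0.0593 without normal library 2, 0.0695 without AML library 1 and 0.11 without AML library 2). Rpl3l was 2.15% and 3.46% of Rpl3 in AML libraries and 3.47%, 3.92% and 5.30% in normal libraries. The RPKM values of Rpl3l overlap between the groups (log2 fold change 0.38, SE 0.27, adjusted p = 0.317). The testis form Rpl10l was listed at 0 in all 5 libraries. Rpl39l, known from male germ cells, was listed at 0 in both AML libraries and at 0.11, 0 and 0.07 RPKM in normal libraries. The ratios of Rpl10l and Rpl39l therefore only mirror their partners Rpl10 and Rpl39. Rps4l is not analysed here.

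**Figure D4:**
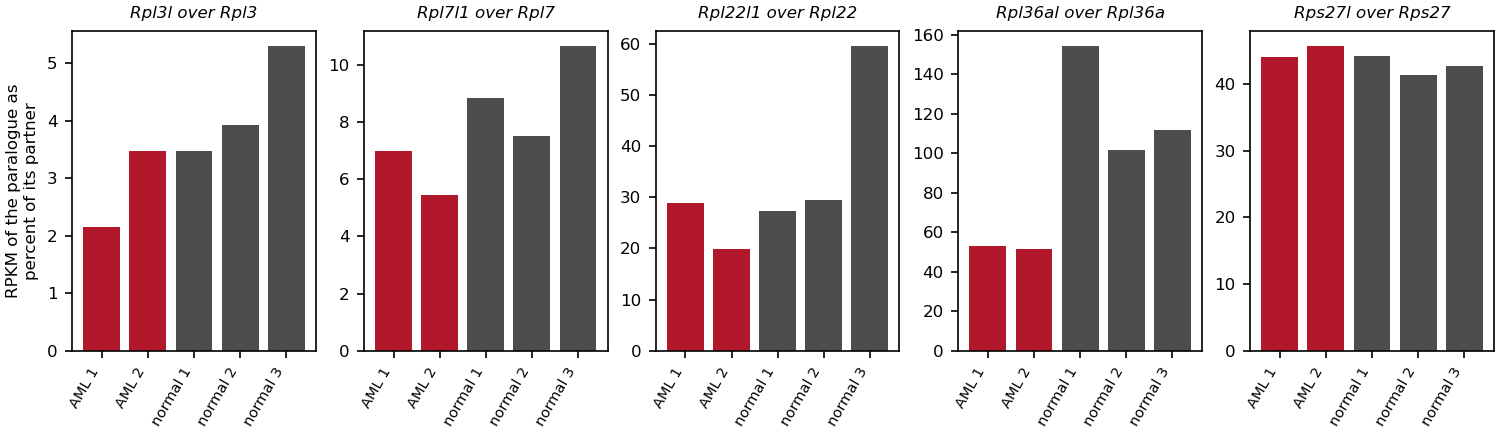
Paralogue as a percent of its partner gene, in RPKM (bars, a scale of its own for each pair), in the 2 AML and 3 normal libraries for the 5 pairs with values above 0. Rpl36al is 52.9% and 51.6% of Rpl36a in AML libraries and above 100% in normal libraries, while Rps27l stays between 41.3% and 45.7% of Rps27.

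Ribosomal protein genes whose symbols fall outside the rule were read beside the members. Gnb2l1 (Rack1), the scaffold protein on the small subunit head, stood at 364 and 342 RPKM in AML libraries and 130, 160 and 149 RPKM in normal libraries. Fau, which encodes the small subunit protein S30, stood at 86.2 and 96.3 RPKM in AML libraries and 48.1, 56.5 and 65.6 RPKM in normal libraries. The groups did not overlap for either gene. Gnb2l1 rose (log2 fold change 1.27, SE 0.24, limma, Benjamini-Hochberg adjusted p = 0.00888), and Fau had 0.69 (SE 0.24, adjusted p = 0.0706). The Gnb2l1 call was lost without AML library 1 (0.0583) or AML library 2 (0.0644).

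Members with many copies in the genome had lower deposited levels. Ribosomal protein genes are known for their many processed pseudogenes, and reads that fit several places may be dropped or split, depending on how they were counted, a step that the sources used here leave out. In 50-base windows of the coding sequence (mm9; transcript 001 of a gene, or its longest where there is none), 28 of the 81 tested members with an annotated coding sequence had an exact copy elsewhere for every window. The 19 members with copies at fewer than 5 loci had a median level of 219.98 RPKM over all libraries, the 48 members with 5 to fewer than 20 loci 106 RPKM, and the 14 members with 20 or more loci 53.9 RPKM. Across the 81 genes Spearman's rho of level with the number of loci was -0.34, a description over genes that share libraries. Rpl29, with copies at 90 loci, was at 1.73 and 2.04 RPKM in AML libraries and 0.13, 0.22 and 0.47 RPKM in normal libraries. Rpl21, with 86 loci, was at 4.45 and 9.31 RPKM in AML libraries and 0.76, 0.91 and 1.27 RPKM in normal libraries. With Rpl3l, these had the lowest mean levels of the tested members, and no group of either gene overlapped. The log2 fold change was 1.19 for Rpl29 and 1.93 for Rpl21. Both passed the filter only through the AML libraries, so their calls and this separation carry less weight, and no p is printed for them. Rpl7a, with 128 loci, still reached 243 and 198 RPKM in AML libraries and 75.6, 89.95 and 127 RPKM in normal libraries. All 218 rows that name pseudogenes of these genes were listed at 0 in every library.

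Genes in all 3 classes of copy number rose. Spearman's rho of the log2 fold change with the number of loci was 0.10 over the 81 genes. The median log2 fold change was 1.48 with fewer than 5 loci (15 of 19 called higher), 1.60 with 5 to fewer than 20 (43 of 48) and 1.60 with 20 or more (12 of 14). The 12 include Rpl21 and Rpl29, which passed the filter only through the AML libraries. The share called higher was 86.6% over all tested members and 19.3% over all tested genes.

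**Figure D5:**
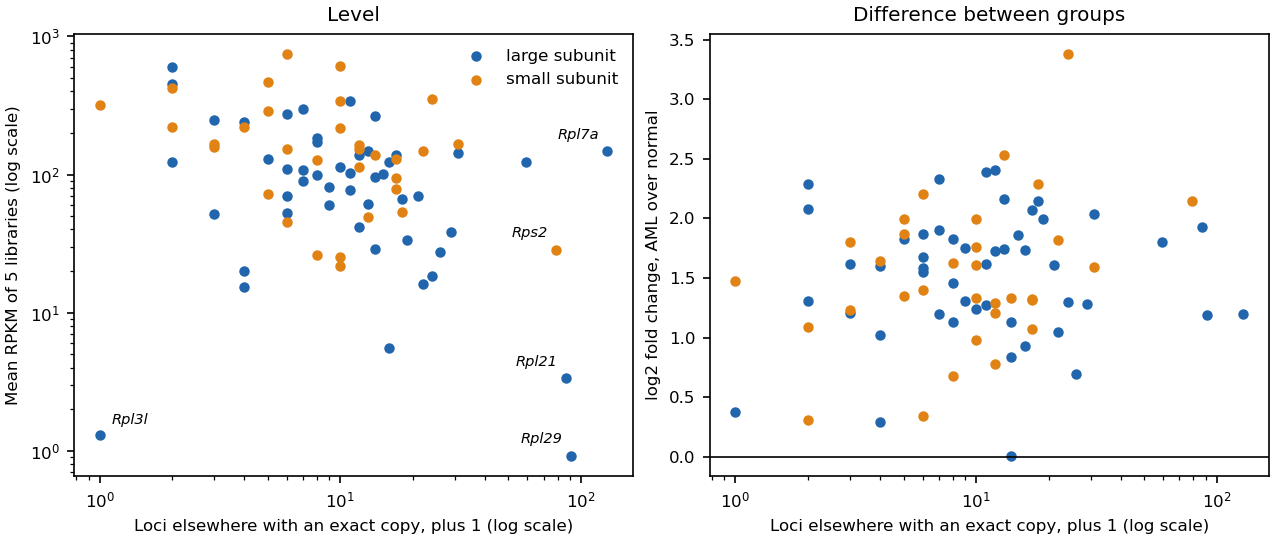
Mean RPKM over 5 libraries (left) and log2 fold change of AML over normal (right) of each tested ribosomal protein gene with a coding sequence, against the number of other genome loci holding an exact 50-base copy, plus 1 (log scale). Rpl29 and Rpl21, with 90 and 86 loci, have some of the lowest levels, and Spearman's rho over the 81 genes is -0.34 for level and 0.10 for fold change.

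The order of the members was largely shared by all libraries. Spearman's rho of the 82 members' levels was 0.94 between the AML libraries, 0.93 to 0.99 between normal libraries and 0.85 to 0.96 between an AML and a normal library. Within the groups the level of the whole family varied. Normal library 2 was above normal library 1 for 80 of 82 members (median log2 ratio 0.40), and normal library 3 was above both for 57 (median log2 ratio to their mean 0.46, beside -0.06 for all tested genes on the log2(RPKM + 1) scale). AML library 2 was above AML library 1 for 55 of 82 members (median log2 ratio 0.23, beside -0.13 for all tested genes).

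Markers of other cells differed between the same libraries. All 6 monocyte markers (Csf1r, Ccr2, Ly86, Fn1, Ctss and Cx3cr1) were lower in AML cells, beside 11.8% of all tested genes. Their sum was 46.2 and 61 RPKM in AML libraries and 620 to 831 RPKM in normal libraries. Cx3cr1, at 0.2 and 0.4 RPKM in AML libraries, passed the filter only through the normal libraries. The 6 erythroid markers summed to 152 and 175 RPKM in AML libraries and 2245, 1463 and 172 RPKM in normal libraries, so normal library 3 had fewer red cell transcripts than normal libraries 1 and 2, and none of the 6 was called. The 8 neutrophil markers, which fit the Gr1 and Mac1 gates, summed to 179130 and 247310 RPKM in AML libraries and 187760 to 295330 RPKM in normal libraries. Among them Elane and Mpo, genes of early granules, were higher and Ltf was lower in AML cells. Of 6 T and NK cell markers 4 were tested. Cd3e, Cd3g and Nkg7 were higher and Cd3d lower, beside 19.3% of all tested genes higher and 11.8% lower. Cd3e stood at 233 and 205 RPKM in AML libraries and 0.19, 0.2 and 0.56 RPKM in normal libraries. It passed the filter only through the AML libraries, which leans towards a higher AML value. The 6 markers summed to 612 and 570 RPKM in AML libraries and 54.6 to 62.2 RPKM in normal libraries. The 6 B cell markers summed to 10.1 and 12.2 RPKM in AML libraries and 10.9 to 16.9 RPKM in normal libraries, and Ebf1 was at 0 and 0.1 RPKM in the AML libraries, which had been sorted for B220. The 4 megakaryocyte markers summed to 2.03 and 4.55 RPKM in AML libraries and 4.99 to 13.1 RPKM in normal libraries. The part of these cell mixtures in the ribosomal protein difference was not tested.

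Other mRNAs with TOP tracts encode elongation and initiation factors and related proteins. Of 21 such genes 7 (33.3%) were higher in AML cells and none was lower, beside 19.3% of all tested genes higher and 11.8% lower, with a median log2 fold change of 0.60 beside 0.12 for all tested genes. The 7 included Naca, Eif3h, Eef1b2, Eif3e, Eef1d and Gnb2l1, which is described above. Naca, a subunit of the complex that meets nascent chains at the tunnel exit, had a log2 fold change of 1.59, and Eif3h, a subunit of initiation factor 3, had 1.36 (limma, Benjamini-Hochberg adjusted p = 0.00623 and 0.00632; 0.0702 and 0.0519 without AML library 2). The calls of Eef1b2, Eef1d and Eif3e were lost without either AML library (0.0683 to 0.177), and those of Eef1d (0.0733 and 0.072) and Eif3e (0.102 and 0.0527) also without normal library 1 or 2. The elongation factors Eef1a1 (0.30, SE 0.38) and Eef2 (0.14, SE 0.71) did not pass the test. Eef1a1 stood at 1070 and 620 RPKM in AML libraries and 715, 843 and 476 RPKM in normal libraries, with overlapping groups. None of 14 tested genes of the mTOR branch and of TOP control was called, with a median of 0.18, and 1 further gene of that list was not tested. Larp1 had a log2 fold change of 0.65 (SE 0.22, adjusted p = 0.0611) and stood at 17.4 and 18.02 RPKM in AML libraries and 12.6, 9.67 and 10.5 RPKM in normal libraries.

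Genes that watch over or assist the making of single ribosomal proteins were read as 2 further lists. Of 8 tested genes of nucleolar stress and p53, 4 (50%) were higher in AML cells and none was lower, beside 19.3% of all tested genes higher, with a median log2 fold change of 0.87 beside 0.12. Of the 4, Cdkn2a passed the filter only through the AML libraries, which leans towards a higher AML value. Without it, 3 of 7 tested genes were higher. Cdkn2a, which encodes the MDM2-binding ARF protein and p16, was at 2.73 and 2.72 RPKM in AML libraries. It was listed at 0 in all 3 normal libraries, so its call carries less weight and no p is printed for it. Rrs1 and Rpf2, which bring the 5S particle of Rpl5 and Rpl11 into the large subunit, had log2 fold changes of 1.54 and 1.15, and Trp53 had 1.17 (limma, Benjamini-Hochberg adjusted p = 0.00285, 0.0172 and 0.0102). The Trp53 call was lost without normal library 2 (0.0503), AML library 1 (0.0636) or AML library 2 (0.0764), and the Rpf2 call without normal library 1 (0.053), AML library 1 (0.0677) or AML library 2 (0.127). Mdm2 had 0.28 (SE 0.23) and did not pass the test. Of 12 chaperones and assembly factors of single ribosomal proteins, 5 (41.7%) were higher and none was lower, beside the same 19.3%, with a median of 0.55 beside 0.12 for all tested genes. They included Ltv1, needed for assembly of the small subunit head, at 1.46, Sbds, which helps to release Eif6 from the large subunit, at 1.24, Pdcd2, a chaperone of Rps2, at 1.06, and Nob1, the nuclease that finishes 18S rRNA, at 1.01 (limma, Benjamini-Hochberg adjusted p = 0.00591, 0.00808, 0.0136 and 0.0129). The fifth, Grwd1, a chaperone of Rpl3, passed the filter only through the AML libraries, which leans towards a higher AML value. It stood at 1.83 and 1.90 RPKM in AML libraries and 0.8, 0.87 and 0.72 RPKM in normal libraries. Another gene of the list, which was not called, also passed in this way. Without such genes, 4 of 10 tested genes of the list were higher. The calls of Ltv1 (0.0651) and Sbds (0.0708) were lost without AML library 2, and those of Pdcd2 (0.0527 to 0.0823) and Nob1 (0.0584 to 0.0764) without any one library other than normal library 3.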

How the data were processed

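Total RNA of FACS-sorted cells was sequenced after Illumina TruSeq library preparation, per the labels' protocols. The values the authors deposited, 1 per gene and library, were read as RPKM made by the authors from reads mapped to mm9, the build in the submitters' processing notes. No label names this unit. It was inferred because multiplying each value by its exon length (kb, GENCODE M1) gave library sums of 1058660 to 1124027. The aligner and the treatment of reads with several matches are not stated in the labels. Read counts were not used here, so depth is unknown and no counting interval is given.

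The 10166 genes that reached 1 RPKM in 2 or more libraries were fitted as log2(RPKM + 1), a scale that understates changes of low genes, with limma 3.58.1 in R 4.3.3 (variance trend, robust, two-sided), with Benjamini-Hochberg adjustment over all of them and a threshold of 0.05. Scripts were tested on simulated data. Fold is the ratio of mean RPKM. Paralogue ratios were compared by exact permutation (scipy 1.17.1), with 1 RPKM added to both terms. RefSeq start sequences were of GRCm38.p6, gene coordinates of mm9. Copies of coding windows were sought on both strands, and hits within 10000 bases counted as 1 locus.

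The members, the lists and the tests were chosen with earlier results of these data known. Some members and listed genes count in the totals and are not reported here by name. Otherwise, named were the called members, the 5 highest and 5 lowest by fold change and by level, the paralogues, the stalk and 5S genes, Rpsa, Rps6, Rps14, Rps19, Fau, Gnb2l1 and up to 3 called genes of each list. Eef1b2, Eef1d, Eif3e, Eef1a1, Eef2, Larp1, Rpf2, Mdm2, Nob1 and Grwd1, and the members not called, were named after their values were seen. Alternatives were 3 scalings, 2 filters, a pseudocount of 0.1, no variance trend, removal of length or GC trends, and leaving out libraries. Older names in the lists with no row of their own were left out.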

Additional observations from a re-analysis of the deposited data

How the results depend on the processing

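The direction of the family did not depend on scaling. Settings were upper quartile scaling, quantile normalization, rescaling without S100a8 and S100a9, and either filter. Others were a pseudocount of 0.1, no variance trend and removal of the GC trend. Across these, 64 to 71 members were higher and 0 lower. That was 77.1% to 87.2% of tested members, beside 10.2% to 19.1% of all tested genes higher. With the length trend removed 59 of 82 members (72%) were higher, beside 15.9% of all tested genes. The median log2 fold change of all genes was 0.12, and -0.10 without S100a8 and S100a9. The median log2 fold change of all members, large and small subunit genes was 1.33, 1.35 and 1.19 without S100a8 and S100a9, and 1.15, 1.21 and 1.08 with the length trend removed. With normal library 3 as the only normal library it was 1.26 for all and 1.32 for large subunit genes, with 39 members higher (26 large, 13 small) and 1 lower; the spread then came from the 2 AML libraries alone. Leaving out 1 library gave 14 to 77 members higher, 11 to 48 of the large and 3 to 29 of the small subunit. The mean ribosomal protein share was 4.85% in AML and 1.93% in normal cells without S100a8 and S100a9. It was 2.81% and 0.978% when weighted by length, over the 83 members with an annotated length. Rpl26 turned below 0 under upper quartile scaling (-0.083), quantile normalization (-0.024), rescaling (-0.22), length (-0.41) or GC correction (-0.15), with 1 library left out (-0.78 to 1.44, below 0 for either of normal libraries 1 and 2 and for AML library 2), and with normal library 3 alone (-2.87). Also below 0 were Rpl3l (-0.0024) and Rps13 (-0.092) with the length trend removed, Rpl7l1 without AML library 1 (-0.048, against up to 0.63 without another library), and Rps29 (-0.022) and Rps9 (-0.22) with normal library 3 alone. The cause was not tested. No paralogue ratio changed sign. No paired analysis was possible because the libraries of the 2 groups carry no shared replicate numbers that pair them. Depth is unknown, so the error of low values such as those of Rpl29 cannot be given.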
